A study of Homo sapiens with 8 samples.

Results

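Cells frozen and thawed in multicomponent osmolyte solutions were compared with cells frozen and thawed in dimethyl sulfoxide (DMSO). The comparison took 5 of the 8 RNA sequencing libraries of the series, chosen by their labels, and covered all 15564 genes with enough counts. All cells were mesenchymal stromal cells that had been made from H9 cells, a human embryonic stem cell line in wide use. The osmolyte-frozen libraries were 1 of cells held for 2 h in the solution labelled SMC, 1 held for 1 h in SGC and 1 held for 1 h in SGI, all cooled at 3 °C per minute. The DMSO-frozen libraries were 1 of cells held for 1 h in DMSO and 1 frozen with a hold of 0 h, both cooled at 1 °C per minute. All 5 came from cells grown with serum on gelatin, thawed in a warm water bath, counted with a live-dead stain and spun down before RNA was taken. The labels do not spell out what SMC, SGC and SGI contain, and unfrozen cells in these solutions were not analysed here. Solution and cooling rate therefore cannot be told apart, and neither can freezing and exposure to the solution. The hold differed between the groups too, and 1 h was the only hold found in both. The other 3 libraries came from fresh cells (0 h, 1 h in DMSO, 1 h in medium). They helped to estimate the spread and are printed where they place a value. Each condition had 1 library and the labels name no separate cultures, so the p-values rest on a spread between unlike conditions that may be technical.

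The libraries carried the labelled cell type's surface markers. NT5E, ENG and THY1, which encode the stromal markers CD73, CD105 and CD90, stood at 156, 169 and 174 CPM, 212, 194 and 199 CPM, and 293, 299.8 and 261 CPM in SMC, SGC and SGI, where CPM is the count scaled to library size. Markers of blood cells summed to 12.4 to 13.6 CPM in osmolyte-frozen and 18.5 to 19 CPM in DMSO-frozen libraries, with CD3E and HBB at 0 counts in all 5. Sums of counts were 41903498 to 44359714 in osmolyte-frozen, 47299694 to 51166666 in DMSO-frozen and 41198716 to 45235900 in fresh libraries. As a share of the totals implied by the deposited RPKM, these sums came to 64.0 to 66.9% in osmolyte-frozen and 72.1 to 73.0% in DMSO-frozen libraries. In fresh libraries they came to 66.15 to 70.4%. What those totals count is not given, but the share differed between the frozen groups. Its part in the results below was not tested.

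A cell that meets freezing faces several stresses together: water leaves it as ice forms outside, salts concentrate, and membranes and proteins are strained. DMSO enters cells readily, while many osmolytes, such as sugars and amino acids, cross the membrane slowly or by carriers. Cells answer many kinds of stress through the integrated stress response, in which kinases phosphorylate the initiation factor eIF2, general translation drops and the factor ATF4 is made. ATF4 then switches on genes for the import and synthesis of amino acids, and the related factor CHOP, encoded by DDIT3, acts with it. Stromal cells also carry programmes for contraction, for building matrix and for sending and receiving growth signals, and these were described here beside the stress genes.

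Promoters are printed first because they show what sets of responding genes shared in sequence and what they did not. They are the bases upstream of the start of a gene from RefSeq on GRCh38.p14, read from 5′ to 3′ on the gene's strand, with motif matches in capitals. CHAC1, ASNS and IARS each hold the ATF4-type element TGATGNAA, searched on both strands, yet CHAC1 and ASNS were higher in osmolyte-frozen cells and IARS lower. ACTG2 holds a pair of CArG boxes, the element bound by serum response factor, and was higher. TOP2A holds a pair of cell cycle homology regions, TTTGAA, and was lower.

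CHAC1 (chr15:40953221-40953470, plus strand): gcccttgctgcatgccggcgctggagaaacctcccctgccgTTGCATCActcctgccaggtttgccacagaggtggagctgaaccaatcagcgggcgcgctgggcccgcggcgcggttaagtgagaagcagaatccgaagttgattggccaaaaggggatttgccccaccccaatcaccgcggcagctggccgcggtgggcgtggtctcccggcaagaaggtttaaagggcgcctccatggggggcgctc
ASNS (chr7:97872409-97872658, minus strand): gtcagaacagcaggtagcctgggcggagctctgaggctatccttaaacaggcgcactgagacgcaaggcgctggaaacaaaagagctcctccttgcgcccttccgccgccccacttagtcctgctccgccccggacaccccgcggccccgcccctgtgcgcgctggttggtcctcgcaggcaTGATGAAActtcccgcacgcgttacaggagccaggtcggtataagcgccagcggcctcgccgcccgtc
IARS (chr9:92293698-92293947, minus strand): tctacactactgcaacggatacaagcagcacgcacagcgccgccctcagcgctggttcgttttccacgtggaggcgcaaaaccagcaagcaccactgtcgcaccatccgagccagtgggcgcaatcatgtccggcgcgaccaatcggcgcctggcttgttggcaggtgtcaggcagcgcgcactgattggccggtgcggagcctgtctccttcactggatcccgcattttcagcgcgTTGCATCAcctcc
ACTG2 (chr2:73892758-73893007, plus strand): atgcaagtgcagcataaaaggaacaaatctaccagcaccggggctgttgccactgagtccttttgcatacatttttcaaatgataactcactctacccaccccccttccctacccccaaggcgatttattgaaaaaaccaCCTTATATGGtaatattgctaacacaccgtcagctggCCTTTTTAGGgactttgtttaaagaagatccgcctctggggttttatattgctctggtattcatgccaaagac
TOP2A (chr17:40417897-40418146, minus strand): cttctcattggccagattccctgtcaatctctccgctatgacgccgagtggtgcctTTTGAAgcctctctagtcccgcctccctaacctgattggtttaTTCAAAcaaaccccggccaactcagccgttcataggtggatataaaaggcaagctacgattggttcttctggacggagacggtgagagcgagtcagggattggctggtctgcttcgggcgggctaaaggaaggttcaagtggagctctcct

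A promoter of 250 bases before to 50 bases after the start was matched for 11695 of the tested genes, or 75.1%. TGATGNAA was present in 1.85% of these promoters, in 2.12% of those of genes called higher and 1.83% of those called lower. Among the 63 matched members of the 4 lists of integrated stress regulators, amino acid synthesis, amino acid transport and cytosolic tRNA synthetases, 16 held it, or 25.4%. Holding it did not go with the call, since 6 of 24 promoters of members called higher held it, and 10 of the other 39. The carriers called higher were CHAC1, ASNS, SLC3A2, SLC38A1, MARS and CARS, those called lower IARS and SLC7A1, and 8 did not pass. SLC38A1 had an adjusted p of 0.00629, and 0.0792 without DMSO 1 h. TTTGAA was in 10.1% of all promoters and in 25 of 34 promoters of the mitosis list, of which 10 of 13 belonged to members called lower and 15 of 21 to members that did not pass. The CArG box was in 1.15% of all promoters. In the smooth muscle list, 1 of 8 promoters of members called higher had matches, that of ACTG2. MYLK, called lower, and CNN2, not called, had a match each. A match describes these letters only and is neither a site nor a cause.

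By edgeR's quasi-likelihood test with Benjamini-Hochberg adjustment at 0.05, 4684 genes differed, which is 30.1% of those tested. Of these, 2121 or 13.6% were higher in osmolyte-frozen cells and 2563 or 16.5% were lower. Every osmolyte-frozen library lay above both DMSO-frozen libraries for 29.1% of all genes and below both for 27.7%, and 4675 of the called genes were among those. Most called differences were small, with a median of 1.44-fold among genes that were higher and 1.34-fold among those that were lower. Of the genes that were higher, 318 differed by 2- to 4-fold and 52 by more, against 121 and 11 of those that were lower. Without the DMSO-frozen 0 h library, the number called was 2136, of which 823 were higher and 1313 lower. With library totals alone in place of the trimmed mean of M-values (TMM), 2571 genes were higher and 1985 lower, so 56.4% of calls were higher against 45.3%. The log2 difference between 2 libraries had a standard deviation over genes of 0.340 to 0.397 within a group and 0.517 to 0.561 between the groups.

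**Figure D1:**
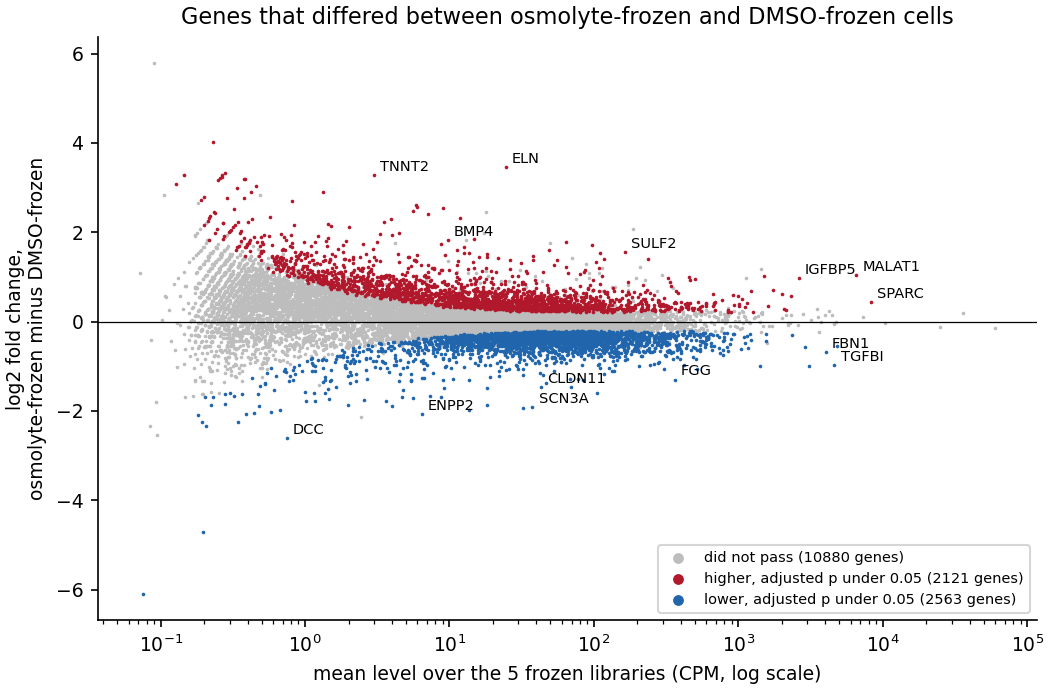
Each point is 1 of 15564 genes, with the mean level over the 5 frozen libraries in CPM on a log axis and the fitted log2 fold change of osmolyte-frozen against DMSO-frozen libraries. Of these, 2121 called higher (red) and 2563 called lower (blue) lie at all levels, and lower genes crowd toward the highly expressed end.

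The direction of a difference went with features of the gene. Length here is the value listed per gene in the deposited table under a heading of coding length. Only 33.9% of these values are multiples of 3 and noncoding genes have them too, so they hold more than coding sequence. Of the 10% of genes with the shortest listed length, 17.3% were called higher and 1.67% lower. Of the 10% with the longest, 10.2% were higher and 33.5% lower. Of the 10% with the lowest GC content of the transcript, 6.88% were called higher and 27.9% lower, against 24.6% and 2.45% of the 10% with the highest. Genes of high level were also more often lower, with 33.7% called lower in the top 10% by level and 1.48% in the bottom 10%. The median listed length was 2708 bases among genes called higher and 4459 among those called lower, and the median GC content 54.0% and 43.6%. When a smooth trend on listed length was removed from each library, an alternative added after seeing the data, 1636 genes were higher and 3553 lower, or 31.5% higher. Removing a trend on GC content gave 1447 higher and 3204 lower, or 31.1% higher, and removing trends on length, GC and level together gave 2072 and 2293, or 47.5% higher. How far such features shaped the calls was not tested. Beside a list's count below, pairs of numbers in parentheses are its members higher and lower under an alternative. They are given where leaving out 1 library, removing a trend, scaling by library totals alone or fitting the 5 frozen libraries alone moved either number by over 1.5 times and at least 2 members, or turned the sign of the median over a distance of more than 0.1 in log2. The rule leaves out the 1 h libraries alone, so a list without parentheses may have moved there.

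**Figure D2:**
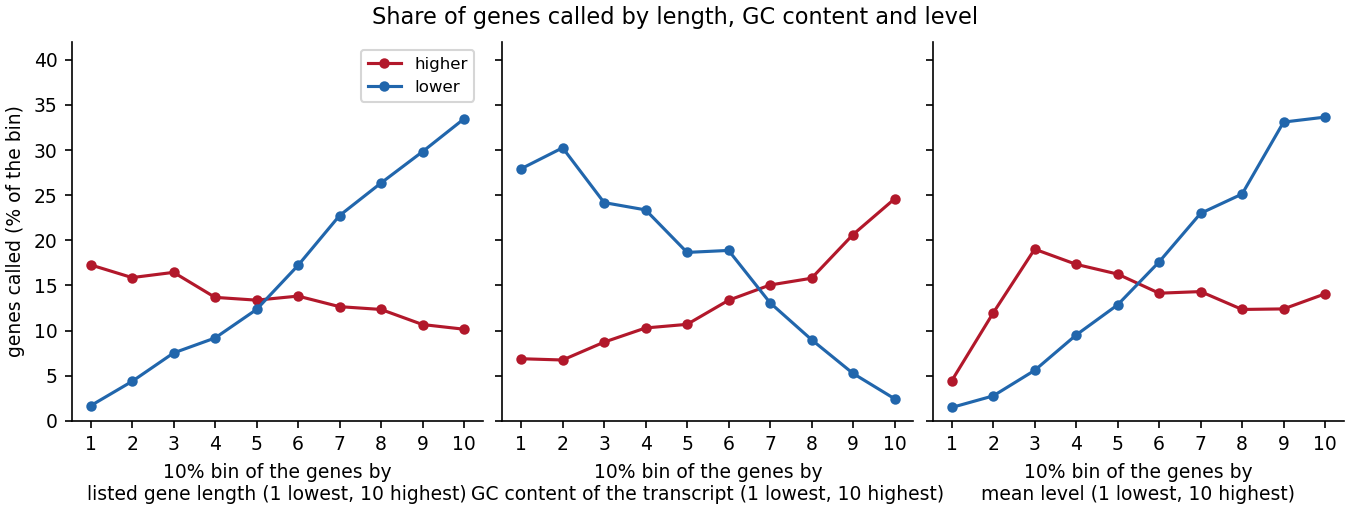
Genes were divided into 10 equal bins by listed length, by GC content of the longest annotated transcript and by mean CPM over the 5 frozen libraries, and each point is the percentage of a bin called higher (red) or lower (blue). Calls of lower genes climb from 1.67 to 33.5% with length and fall from 27.9 to 2.45% with GC content.

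Genes listed as integrated stress regulators rose in large part. The list also holds targets of the regulators, among them CHAC1. Of its 20 tested members, 13 rose and 0 fell, where 13.6% of all genes rose. The median log2 fold change was 0.81, against 0.044 over all genes. The count that rose was 10 to 15 over the fits that left out 1 library. ATF4, the central factor, stood at 300.2, 308 and 299.7 CPM in SMC, SGC and SGI and at 199 and 201 CPM in DMSO 1 h and 0 h, a 1.52-fold rise (log2 fold change 0.60, SE 0.091, adjusted p = 9.81e-05). The 3 osmolyte-frozen libraries were alike and the groups far apart, with fresh libraries at 211, 193 and 241 CPM. DDIT3, which encodes CHOP, rose from 6.73 and 8.08 to 13.8, 14.6 and 14.7 CPM (log2 fold change 0.96, SE 0.14, adjusted p = 9.39e-05). Its gene overlaps that of MARS, and reads of such a pair may not be told apart. CEBPG, a partner of ATF4, rose 1.62-fold (adjusted p = 5.49e-05) and JDP2, a related leucine zipper factor, 2-fold (adjusted p = 6.39e-06). TRIB3, a pseudokinase that restrains ATF4 and CHOP, rose from 9.4 and 8.36 to 11.1, 15.3 and 15.4 CPM, 1.57-fold (adjusted p = 0.00187).

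Known targets of these factors, among them CHAC1 from the same list, showed some of the largest rises. CHAC1, a glutathione-degrading enzyme whose promoter is printed above, stood at 8.37, 17.1 and 14.8 CPM against 2.49 and 2.13 CPM, and its log2 fold change was 2.54 (SE 0.27, adjusted p = 3.12e-05). SMC was the lowest of the 3 solutions, but no osmolyte-frozen library overlapped a DMSO-frozen one. ADM2, a peptide hormone of the adrenomedullin family, was at 14.7, 18.8 and 18.4 CPM against 3.54 and 3.35 CPM (log2 fold change 2.33, SE 0.15, adjusted p = 5.15e-09). NUPR1, a small stress-induced chromatin protein, was at 8.81, 9.6 and 8.22 CPM against 1.62 and 1.3 CPM (log2 fold change 2.61, SE 0.19, adjusted p = 5.30e-08). In these 3 genes the DMSO-frozen libraries lay close to the fresh ones, which were at 1.88, 2.23 and 2.04 CPM for CHAC1, 3.31, 3.27 and 3.3 CPM for ADM2 and 1.16, 0.955 and 1.31 CPM for NUPR1. GDF15, a secreted stress cytokine, rose 1.98-fold and VLDLR, a lipoprotein receptor, 1.89-fold. SESN2, a sensor that restrains mTORC1, rose 1.37-fold (adjusted p = 0.00229, and 0.0547 without DMSO 0 h). ATF3 did not pass, at 13.4, 40.4 and 20.5 CPM against 6.34 and 6.19 CPM (adjusted p = 0.304), with fresh libraries at 29.4, 7.19 and 108 CPM, a spread that enters the fit. STC2 (log2 fold change 0.13), ATF5 (0.31) and PPP1R15A (0.61) did not pass either.

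Enzymes of serine, asparagine and cysteine synthesis rose with them. Of 21 genes of amino acid and one-carbon synthesis, 8 rose and 3 fell (6 and 1 without DMSO 0 h, 7 and 1 without SGC, 7 and 5 with the length trend removed, where the median turned from 0.11 to -0.011, 9 and 1 with library totals). PSAT1, the aminotransferase of serine synthesis, was at 36, 60.9 and 53.8 CPM against 19.4 and 19 CPM, a 2.62-fold rise (log2 fold change 1.39, SE 0.19, adjusted p = 0.000653). PHGDH, which opens that pathway, rose 1.39-fold and PSPH, which closes it, 1.33-fold, so all 3 enzymes of the route passed. ASNS, asparagine synthetase, was at 32.6, 51.8 and 44.5 CPM against 19.2 and 20.1 CPM (log2 fold change 1.13, SE 0.15, adjusted p = 0.000209). CBS, which joins serine and homocysteine on the way to cysteine, was at 14.1, 17.4 and 19.4 CPM against 6.51 and 5.25 CPM (log2 fold change 1.53, SE 0.17, adjusted p = 4.87e-06). CTH, the next enzyme of that route, did not pass (log2 fold change 0.11, adjusted p = 0.657). The mitochondrial folate enzyme SHMT2 did not pass (log2 fold change 0.16) and the cytosolic one MTHFD1 fell 1.29-fold.

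Amino acid transporters moved in both directions. Of 21, 7 rose and 2 fell (7 and 4 with the length trend removed). SLC6A9, the glycine transporter, was at 31.9, 36.9 and 33.7 CPM against 18 and 15.7 CPM (log2 fold change 1.02, SE 0.10, adjusted p = 1.55e-06). SLC3A2 and SLC7A5, the chains of a large neutral amino acid exchanger, rose 1.64-fold and 1.54-fold, and SLC1A4, a neutral amino acid carrier, 1.47-fold. SLC7A1, a carrier of cationic amino acids, fell 1.29-fold (adjusted p = 0.0033). SLC38A2 and SLC1A5, carriers of small neutral amino acids and glutamine, did not pass (log2 fold changes -0.12 and 0.087).

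The charging of tRNA was not raised as a set. Of 20 cytosolic aminoacyl-tRNA synthetases, 2 rose and 4 fell, shares near those of all genes, with a median log2 fold change of -0.032. The counts moved with the settings (2 and 0 without DMSO 0 h, 2 and 1 without SGI, 2 and 8 with the length trend removed, 7 and 1 with all 3 trends removed, where the median turned from -0.032 to 0.083, 2 and 2 with library totals). MARS, the methionine enzyme, rose from 112 and 113 to 137, 154 and 149 CPM (log2 fold change 0.38, SE 0.083, adjusted p = 0.00226). CARS, the cysteine enzyme, rose 1.26-fold (adjusted p = 0.00532, and 0.0695 without DMSO 1 h). IARS, the isoleucine enzyme, fell from 218 and 227 to 174, 181 and 171 CPM (log2 fold change -0.34, SE 0.079, adjusted p = 0.00321, and adjusted p = 0.0541 without DMSO 0 h). Mitochondrial synthetases leaned lower, with 1 of 17 higher and 5 lower, among them IARS2 at 1.56-fold and LARS2 at 1.4-fold. The counts moved with the settings too (0 and 3 without DMSO 0 h or SGI, 1 and 3 without DMSO 1 h).

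**Figure D3:**
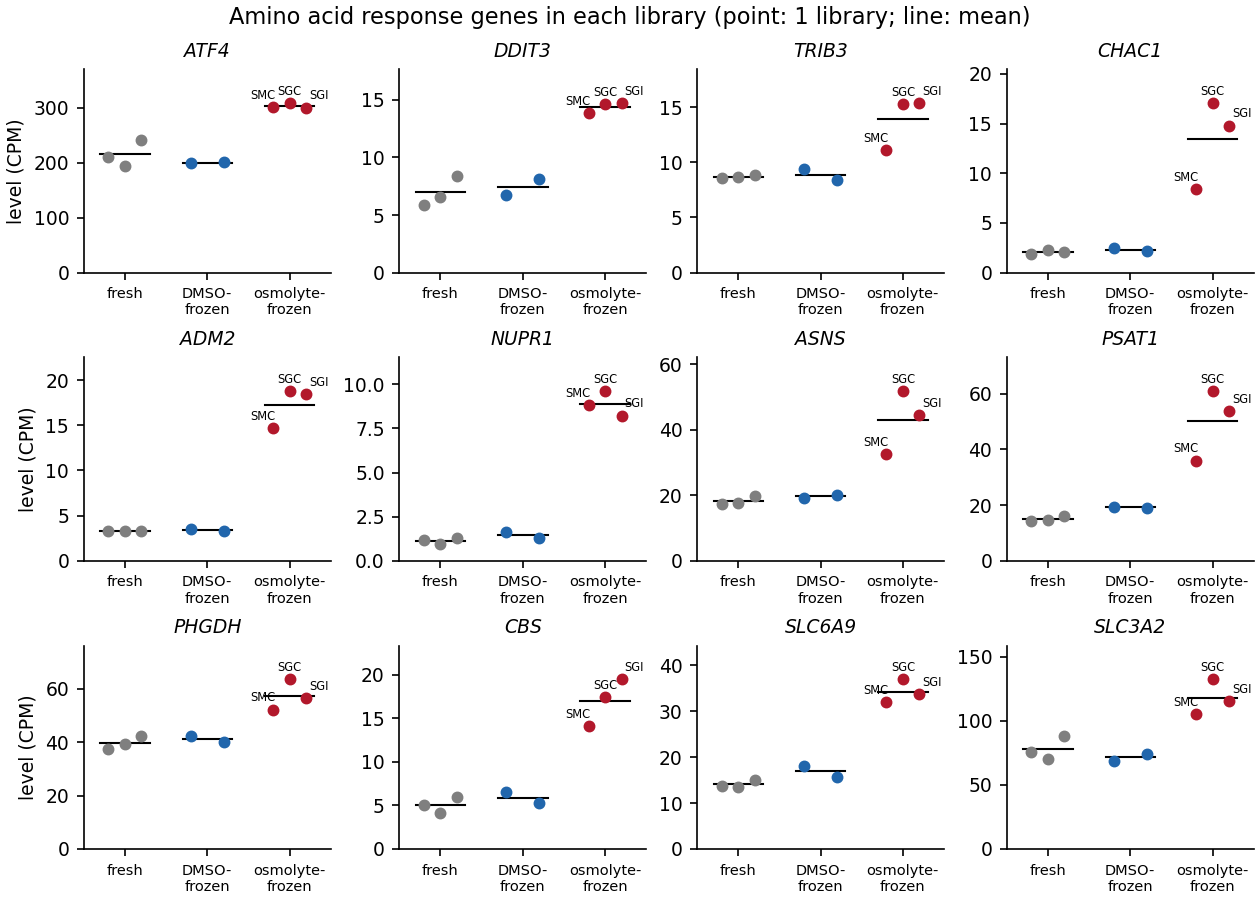
Each point is the level of a gene in 1 library in CPM, with fresh libraries in grey, DMSO-frozen in blue and osmolyte-frozen in red (SMC, SGC and SGI labelled) and the group mean as a line. In all 12 genes the 3 osmolyte-frozen libraries lie above the other 5; SMC is the lowest of the 3 in all but ATF4 and NUPR1.

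Contractile genes of smooth muscle rose in large part. Smooth muscle cells and activated stromal cells share a set of actins, actin-binding proteins and regulators of myosin, much of it under serum response factor and its partners. Of 16 members, 11 rose and 1 fell, with a median log2 fold change of 0.58 and 9 to 12 rising over the fits that left out 1 library. The actins ACTG2 and ACTA2, near-identical genes between which reads may be split, were at 278, 347 and 315 CPM against 119 and 118 CPM and at 150.4, 172 and 147 CPM against 59.8 and 59.2 CPM. Their log2 fold changes were 1.41 (SE 0.11, adjusted p = 9.34e-08) and 1.40 (SE 0.086, adjusted p = 5.15e-09), and in fresh libraries they were lower than in either frozen group, at 64.7, 75.6 and 81.2 CPM for ACTG2 and 43.2, 43.9 and 42.5 CPM for ACTA2. CNN1, calponin, was at 103, 115 and 109 CPM against 53.2 and 48.5 CPM (log2 fold change 1.10, SE 0.085, adjusted p = 8.21e-08). Thin-filament proteins that were already abundant rose less: TAGLN 1.63-fold, TPM1 1.5-fold, TPM2 1.49-fold and CALD1, caldesmon, 1.51-fold. MYL9, a myosin light chain, rose 1.53-fold, and LMOD1, an actin nucleator, 1.5-fold. MYLK, the kinase that starts contraction by phosphorylating that light chain, went the other way, at 74.6, 66.2 and 64 CPM against 106 and 103 CPM (log2 fold change -0.62, SE 0.086, adjusted p = 4.33e-05). MYOCD, the myocardin coactivator, did not pass (log2 fold change -0.14, adjusted p = 0.696).

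Some genes of striated muscle moved in the same libraries at low levels. Of 15 markers of skeletal and cardiac muscle, 8 were tested, 4 rose and 1 fell. TNNT2, cardiac troponin T, was at 4.65, 4.96 and 4.44 CPM against 0.481 and 0.473 CPM, a log2 fold change of 3.29 (SE 0.30, adjusted p = 4.28e-07), and TNNC1, troponin C, at 2.1, 2.41 and 2.09 CPM against 0.525 and 0.473 CPM (adjusted p = 0.00227). MYH3, embryonic myosin, rose 2.58-fold and MYPN, myopalladin, fell 3.2-fold. The factors MYOD1 and PAX7, the myosins MYH2 and MYH6 and the troponin gene TNNT3 were at 0 counts in all 5 frozen libraries. The factors MYOG, MYF5 and NKX2-5 had counts in at least 1 of them. The whole list summed to 16.9 to 21.3 CPM in osmolyte-frozen, 12.4 to 13.9 CPM in DMSO-frozen and 16 to 20.5 CPM in fresh libraries.

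The wider actin and microtubule machinery did not follow the contractile genes. Of 44 genes of actin dynamics and its control, 3 rose and 16 fell (0 and 10 without DMSO 0 h, 1 and 18 with the GC trend removed, 6 and 13 with all 3 trends removed, 5 and 13 with library totals). FLNC, a filamin that cross-links actin, fell 1.79-fold, the formins DIAPH1 and DIAPH2 fell 1.47-fold and 1.7-fold, and TLN2, a talin, 1.36-fold. ACTB, ACTG1 and MYH9, the abundant nonmuscle actins and myosin, did not pass (log2 fold changes 0.23, -0.011 and -0.0001). Of 28 genes of tubulins and motors, 4 rose and 10 fell (2 and 8 without SGC, 2 and 11 without SGI). DYNC1H1, the heavy chain of dynein, fell 1.62-fold, MAP1A 1.7-fold and KIF3B, a kinesin, 1.65-fold, while TUBB2B, a tubulin, rose from 3.93 and 5.05 to 11.3, 13.3 and 13.3 CPM (adjusted p = 9.22e-06) and may share reads with TUBB2A. Among intermediate filaments KRT7, an epithelial keratin, rose 2.07-fold and LMNB1, a nuclear lamin, fell 1.38-fold, while VIM and LMNA did not pass (log2 fold changes 0.15 and -0.021).

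Matrix genes moved in both directions. Elastic fibres form when elastin is laid on fibrillin microfibrils with the help of fibulins and microfibril-associated proteins. Of 14 genes, 5 rose and 2 fell (4 and 4 with the GC trend removed, 8 and 2 with all 3 trends removed or with library totals). FBLN5, a fibulin that guides elastin, was at 133, 154 and 134 CPM against 65 and 57.3 CPM (log2 fold change 1.2, SE 0.098, adjusted p = 1.43e-07), MFAP5 rose 2.03-fold and MFAP2 1.48-fold. Elastin itself, ELN, was at 43, 41.6 and 31.1 CPM against 3.93 and 3.12 CPM and at 1.03, 0.91 and 1.26 CPM in fresh libraries, the largest rise among genes of at least 5 CPM. FBN1, the microfibril scaffold, fell from 5327 and 5102 to 3488, 3218 and 2985 CPM (log2 fold change -0.69, SE 0.092, adjusted p = 2.81e-05).

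Of 26 collagen genes, 8 rose and 4 fell (1 and 3 without DMSO 0 h, 5 and 7 with the GC trend removed, where the median turned from 0.13 to -0.0086). COL6A3, a chain of the pericellular collagen VI, fell from 4594 and 4242 to 2238, 2159.5 and 2281 CPM (log2 fold change -0.99, SE 0.087, adjusted p = 2.98e-07), whereas its partners COL6A1 and COL6A2 did not pass (log2 fold changes 0.038 and 0.28). COL12A1, a fibril-associated collagen, fell 1.52-fold, and COL8A2, a network collagen, rose 1.91-fold. The fibrillar chains COL1A1, COL1A2 and COL3A1 did not pass, with log2 fold changes of 0.19, -0.13 and 0.096. COL1A1 was at 45295, 35073 and 33393 CPM against 36736 and 29611 CPM, and the groups overlapped. BMP1, the protease that trims procollagen, rose 1.57-fold, LOXL4, a cross-linking oxidase, 1.63-fold, and PLOD2, a lysyl hydroxylase, fell 1.34-fold.

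Several small leucine-rich proteoglycans rose and a pair of hyaluronan genes fell among 36 other matrix glycoproteins and proteoglycans, of which 11 rose and 10 fell (9 and 6 without DMSO 0 h, 8 and 5 without DMSO 1 h, 11 and 11 with the GC trend removed, where the median turned from 0.12 to -0.018). BGN, biglycan, rose 1.53-fold, PRELP 2-fold and ASPN, asporin, 2.29-fold. DCN, decorin, was at 161, 176 and 113 CPM against 54.7 and 49.3 CPM (adjusted p = 0.00714, and 0.0698 without DMSO 0 h) and LUM, lumican, at 46.5, 34.4 and 23.7 CPM against 14.5 and 12.3 CPM (adjusted p = 0.014, 0.119 without DMSO 0 h and 0.0665 without DMSO 1 h). SPARC, an abundant collagen-binding glycoprotein, rose 1.35-fold, from 6932 and 6708 to 9810.2, 9836 and 7969 CPM. HAS2, the main hyaluronan synthase, was at 3.77, 3.66 and 6.44 CPM against 15.6 and 14.4 CPM, and CD44, the hyaluronan receptor, at 278, 254 and 273 CPM against 464 and 495 CPM (log2 fold change -0.84, SE 0.079, adjusted p = 6.20e-07). NID2, a basement membrane protein, fell 2.08-fold, and MXRA5, an adhesion glycoprotein, 2.29-fold. FN1, TNC and VCAN did not pass (log2 fold changes -0.14, 0.0007 and -0.48). SULF2, which trims heparan sulfate outside the cell, rose from 82.9 and 69.6 to 234, 241 and 195 CPM (log2 fold change 1.55, SE 0.12, adjusted p = 1.41e-07).

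Of 28 matrix proteases and inhibitors 8 rose and 8 fell (4 and 7 without DMSO 0 h, 5 and 9 with the GC trend removed, where the median turned from 0.13 to -0.013). Among those that fell were ADAM9 at 1.51-fold, ADAM10 at 1.63-fold, ADAM12 at 1.67-fold and ADAM17 at 1.33-fold, proteases of the cell surface. Among those that rose were ADAMTS6 at 1.4-fold, ADAMTS7 at 1.48-fold, MMP24 at 1.44-fold and MMP11 at 1.51-fold, matrix proteases. ADAM33, which was not on the list and is named after its value was seen, rose 2.12-fold. MMP2, TIMP1 and TIMP2 did not pass (log2 fold changes 0.17, 0.065 and 0.038).

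Integrins, the cell's matrix receptors, fell more than they rose, with 4 of 19 higher and 6 lower (1 and 5 without DMSO 0 h, 4 and 7 with all 3 trends removed, where the median turned from -0.13 to 0.019). ITGA6 and ITGA2, chains of laminin and collagen receptors, fell 2.17-fold and 1.96-fold, ITGA4 2.07-fold and ITGA5, of the fibronectin receptor, 1.46-fold. ITGB1, the beta chain they share, was at 4395, 4191 and 3631 CPM against 5919 and 6042 CPM (log2 fold change -0.55, SE 0.092, adjusted p = 0.000227). ITGA11, another collagen receptor chain, went the other way, from 951 and 831 to 1543, 1477 and 1286 CPM (log2 fold change 0.69, SE 0.11, adjusted p = 0.000192).

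Of 38 genes of cadherins and junctions, 9 rose and 13 fell (5 and 10 without DMSO 0 h, 5 and 13 without SMC or SGC, 11 and 11 with all 3 trends removed, where the median turned from -0.095 to 0.039), and a pair of claudins moved in opposite directions. CLDN1 was at 9.2, 10.8 and 10.0 CPM against 4.28 and 4.57 CPM, and CLDN11 at 26.5, 25 and 24 CPM against 71.2 and 68.1 CPM, with log2 fold changes of 1.17 (SE 0.15, adjusted p = 2.03e-05) and -1.47 (SE 0.078, adjusted p = 1.40e-09). JUP, plakoglobin, rose 1.79-fold and CTNND1, the p120 catenin, fell 1.73-fold. CDH2, CDH11 and GJA1 did not pass (log2 fold changes -0.16, -0.15 and -0.091).

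Guidance cues used by axons and by migrating cells showed some of the widest differences. The netrin gene NTN1 and DCC, a receptor that binds netrin, went opposite ways, with DCC at a low level. NTN1 was at 22, 23.5 and 16.6 CPM against 6.64 and 4.85 CPM (log2 fold change 1.85, SE 0.26, adjusted p = 0.000683). DCC was at 0.245, 0.268 and 0.218 CPM against 1.57 and 1.42 CPM (log2 fold change -2.61, SE 0.33, adjusted p = 1.75e-05). EFNA1, an ephrin, rose 3.04-fold, from 5.38 and 4.73 to 16.1, 16.2 and 13.8 CPM. The neuropilins NRP1 and NRP2, which serve semaphorins and VEGF, fell 1.69-fold and 1.72-fold, SEMA7A fell 1.72-fold and SLIT2, a repellent, 1.65-fold. Over the whole list of 41, 8 rose and 15 fell (5 and 11 without DMSO 0 h, where the median turned from 0.020 to -0.099, 6 and 16 with the GC trend removed, where the median turned from 0.020 to -0.18).

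**Figure D4:**
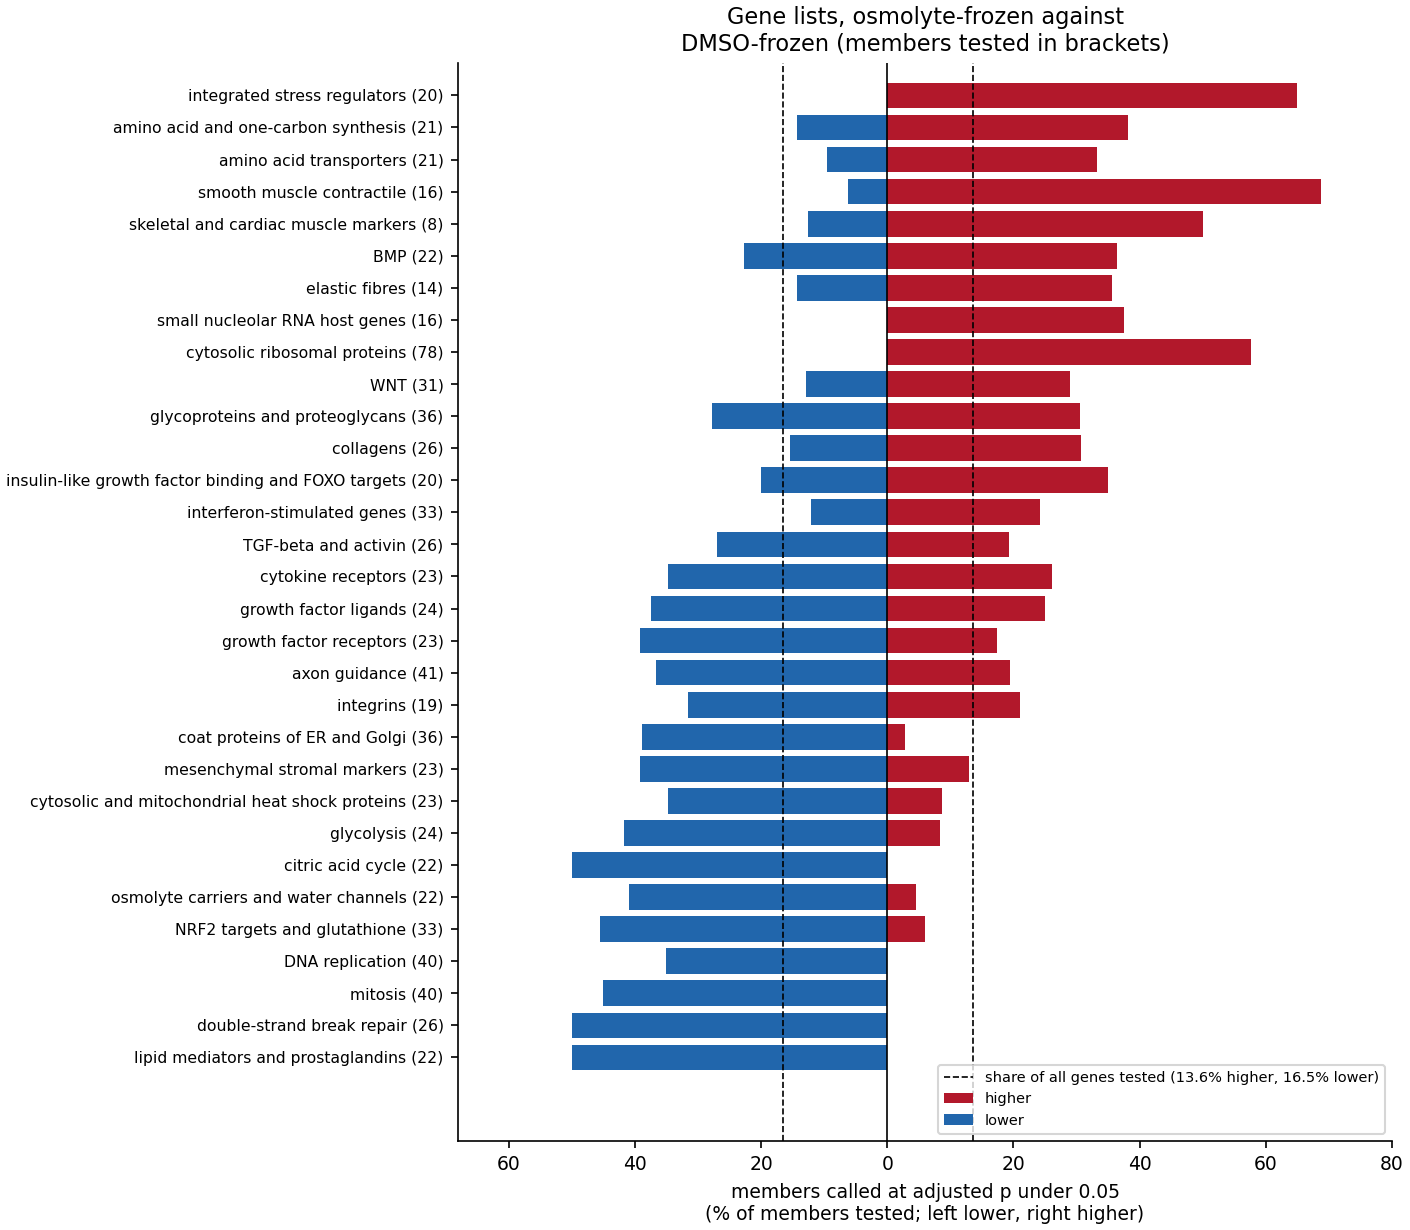
Each bar gives the percentage of a list's tested members called higher (red, right) or lower (blue, left) in osmolyte-frozen cells, and the dashed lines give the share of all genes, 13.6% higher and 16.5% lower. Lists of integrated stress regulators and smooth muscle genes reach farthest to the right; lipid mediators, double-strand break repair and the citric acid cycle reach farthest to the left.

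Several ligands and antagonists of the bone morphogenetic protein (BMP) family rose, while receptors and a SMAD fell. BMPs bind paired receptors that phosphorylate SMAD1, SMAD5 and SMAD9, and secreted antagonists such as noggin and GREM1 hold the ligands back. Of 22 members 8 rose and 5 fell (7 and 2 without DMSO 0 h). BMP4 was at 15.3, 13.5 and 12.1 CPM against 3.85 and 3.83 CPM and at 1.79, 2 and 1.7 CPM in fresh libraries (log2 fold change 1.83, SE 0.15, adjusted p = 1.41e-07). GDF6, a relative, rose 1.56-fold (adjusted p = 2.21e-05). Among antagonists NOG, noggin, was at 5.97, 7.1 and 7.96 CPM against 3.45 and 2.48 CPM (log2 fold change 1.24, SE 0.20, adjusted p = 0.000181). GREM1, an antagonist at a far higher level, fell from 989 and 1012 to 717, 674 and 545 CPM (log2 fold change -0.63, SE 0.10, adjusted p = 0.000192). Per kilobase of listed length it was at 156 CPM in osmolyte-frozen cells, against 3.71 CPM for NOG. BAMBI, a decoy receptor, rose 1.45-fold, whereas the receptor BMPR2 was at 154, 118 and 132 CPM against 198 and 201 CPM (adjusted p = 0.00462, and 0.0568 without DMSO 0 h) and SMAD5 fell 1.44-fold. The paired receptors BMPR1A and BMPR1B fell, with log2 fold changes of -0.32 (adjusted p = 0.00639, 0.0534 without DMSO 0 h) and -0.79 (adjusted p = 0.0313, 0.0616 without DMSO 0 h, 0.235 without DMSO 1 h, 0.0801 without SGC, 0.125 without SGI). ID1, ID2 and ID3, usual targets of the pathway, did not pass, with log2 fold changes of -0.095, 0.84 and 0.59.

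In TGF-beta and activin signalling an activin subunit and its antagonists rose and a pair of TGF-beta receptors fell. Of 26 genes 5 rose and 7 fell (3 and 5 without DMSO 0 h, where the median turned from 0.069 to -0.047, 3 and 7 without SMC, 5 and 8 with the GC trend removed, where the median turned from 0.069 to -0.074, 10 and 6 with all 3 trends removed). INHBB, an activin subunit, was at 10.7, 10.4 and 10.3 CPM against 2.01 and 1.89 CPM (log2 fold change 2.42, SE 0.19, adjusted p = 8.51e-08), and the activin antagonists FST and FSTL3 rose 1.44-fold and 1.51-fold. The receptors TGFBR2 and TGFBR3 were at 199.6, 166 and 170.1 CPM against 287 and 279 CPM and at 16.4, 12.6 and 12.7 CPM against 25.2 and 29 CPM, with log2 fold changes of -0.66 (SE 0.10, adjusted p = 0.000102) and -0.96 (SE 0.12, adjusted p = 2.27e-05), and SMAD3 fell 1.57-fold. TGFBR1, which pairs with TGFBR2, rose 1.26-fold (adjusted p = 0.0145, 0.0902 without DMSO 0 h, 0.0882 without DMSO 1 h, 0.052 without SMC). TGFBI, a secreted adhesion protein named for its response to TGF-beta and the largest fall in CPM among called genes, went from 6725 and 6390.1 to 3176, 3636 and 3243 CPM. The ligands TGFB1 and TGFB2 did not pass (log2 fold changes 0.014 and 0.11).

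Of 31 WNT genes 9 rose and 4 fell (5 and 3 without DMSO 0 h), and the secreted inhibitors divided. DKK2 was at 56.8, 52.2 and 42.8 CPM against 20.2 and 16.4 CPM and at 5.91, 3.82 and 3.54 CPM in fresh libraries (log2 fold change 1.47, SE 0.20, adjusted p = 0.000659). DKK1 rose 1.81-fold. SFRP1, an inhibitor of another family, fell 1.42-fold. FZD1, a receptor, rose 2.02-fold and TCF7L1, a nuclear partner of beta-catenin, 1.49-fold, while CTNNB1, beta-catenin itself, fell 1.3-fold and the ligand WNT2B 1.7-fold. Of 18 Notch genes 3 rose and 4 fell, or 16.7% and 22.2% against 13.6% and 16.5% of all genes. Other settings gave other counts (5 and 4 without fresh 1 h medium or in the 5 frozen libraries, 2 and 6 with the GC trend removed, where the median turned from 0.032 to -0.17). JAG2, a ligand, rose 2.84-fold and LFNG, a glycosyltransferase that tunes the receptor, 2.55-fold, while NOTCH2, a receptor, fell 1.61-fold and RBPJ, its DNA-binding partner, 1.4-fold. Of 11 Hedgehog genes 3 rose and 3 fell, or 27.3% each way, and the number that fell moved without DMSO 1 h. GAS1, a coreceptor, rose 2.22-fold and PTCH1, the receptor that is also a target, fell 1.89-fold, and GLI1, the other usual target, did not pass (log2 fold change -0.28). Of 24 genes of YAP signalling 5 rose and 8 fell (3 and 5 without DMSO 0 h, 5 and 5 without DMSO 1 h, 6 and 5 with all 3 trends removed, 8 and 8 in the 5 frozen libraries). ANKRD1, a target, rose 3.29-fold, YAP1 fell 1.49-fold, and the targets CTGF and CYR61 did not pass (log2 fold changes 1.18 and 0.98).

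Growth factors and their receptors moved in both directions, with more members lower than higher in both lists. The summed level of the ligand list went the other way. It was 2985, 3078 and 2462 CPM in SMC, SGC and SGI against 1729 and 1813 CPM in DMSO 1 h and 0 h. In the fresh libraries (0 h, 1 h in DMSO, 1 h in medium) it was 2128, 1531 and 2974 CPM. Of 24 ligands 6 rose and 9 fell (5 and 4 without DMSO 0 h, 4 and 5 without DMSO 1 h). Of 23 receptors 4 rose and 9 fell (2 and 7 without DMSO 0 h or SGC, 2 and 6 without DMSO 1 h, 2 and 9 without fresh 0 h). KITLG, stem cell factor, was at 44.5, 39 and 47.4 CPM against 104 and 108 CPM (log2 fold change -1.28, SE 0.099, adjusted p = 1.07e-07). ANGPT1, a ligand of the endothelial TIE2 receptor, was at 2.06, 1.92 and 1.78 CPM against 7.17 and 6.98 CPM, and HGF, hepatocyte growth factor, at 2.3, 2.99 and 2.52 CPM against 5.73 and 5.6 CPM, with log2 fold changes of -1.88 (SE 0.20, adjusted p = 4.63e-06) and -1.12 (SE 0.23, adjusted p = 0.00187). These are factors by which stromal cells are known to act on blood-forming, endothelial and epithelial cells. BDNF, a neurotrophin, rose 1.76-fold, and IGF2, a fetal growth factor, was at 7.05, 6.97 and 5.53 CPM against 3.32 and 2.68 CPM (log2 fold change 1.12, SE 0.18, adjusted p = 0.000209). VEGFA, at the centre of vessel growth, did not pass (log2 fold change -0.15, adjusted p = 0.149). Among receptors EGFR was at 83.1, 84.8 and 98.6 CPM against 190.4 and 174 CPM (log2 fold change -1.04, SE 0.12, adjusted p = 2.27e-05), PDGFRA fell 1.8-fold and MET, the receptor of HGF, 1.45-fold. FLT1, a VEGF receptor at low level, rose from 1.66 and 1.74 to 3.52, 4.82 and 4.7 CPM (adjusted p = 0.000331), and IGF1R, FGFR1 and PDGFRB did not pass (log2 fold changes 0.16, 0.18 and -0.21).

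**Figure D5:**
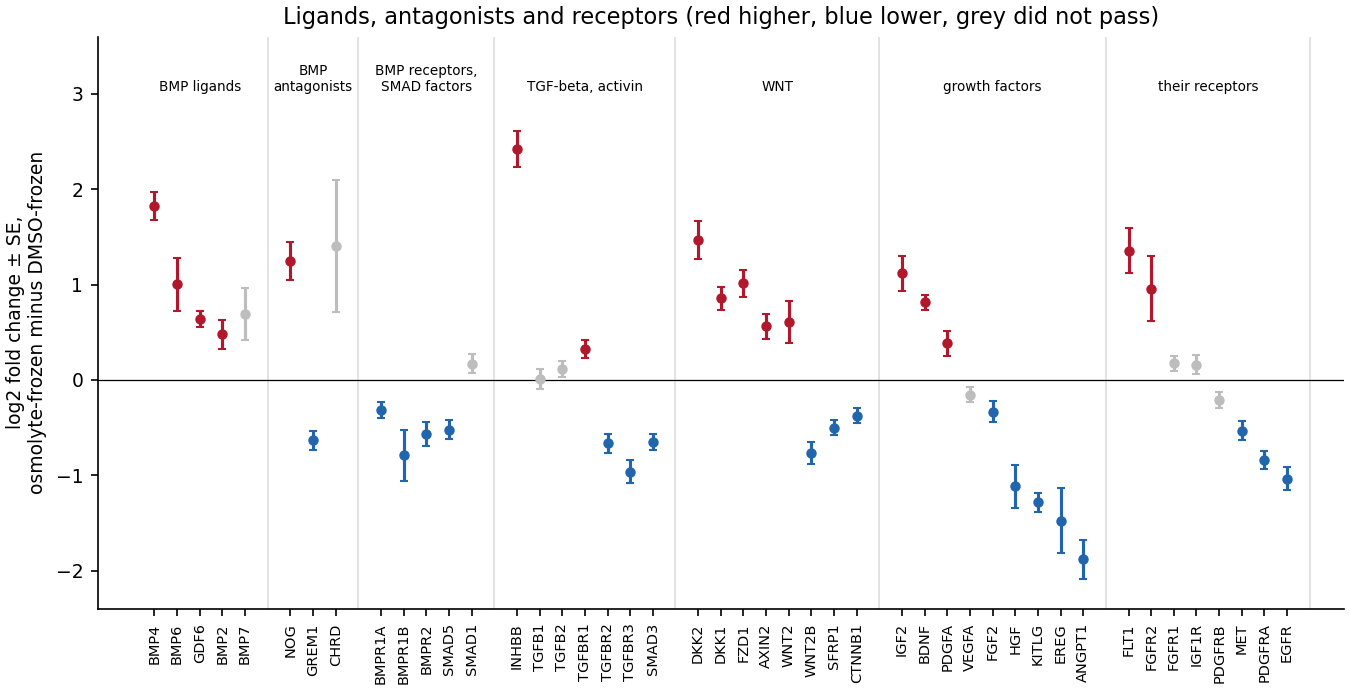
Each point is the log2 fold change of osmolyte-frozen against DMSO-frozen libraries with its standard error, for ligands, antagonists, receptors and factors grouped by pathway. Red and blue points passed at an adjusted p under 0.05, and receptors such as TGFBR2, TGFBR3, EGFR and PDGFRA lie below 0 while INHBB and BMP4 lie near 2.

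Proteins that bind insulin-like growth factors changed by large amounts in CPM, in both directions. IGFBP5 was at 3144, 3421 and 3198 CPM against 1767 and 1562 CPM and at 944, 951 and 888 CPM in fresh libraries (log2 fold change 0.97, SE 0.084, adjusted p = 2.67e-07). IGFBP7 was at 1899, 2037 and 1715 CPM against 1001 and 862 CPM (log2 fold change 1.02, SE 0.092, adjusted p = 4.11e-07) and IGFBP3 rose 1.43-fold. IGFBP4 fell from 2743 and 2545 to 2222, 2151 and 2037 CPM (log2 fold change -0.31, SE 0.081, adjusted p = 0.00801, and adjusted p = 0.104 without DMSO 1 h). IRS1, the adaptor of insulin and IGF receptors, fell 1.83-fold and FOXO3, a factor that this signalling holds out of the nucleus, 1.38-fold. Over the list of 20, 7 rose and 4 fell (3 and 4 without DMSO 0 h, 6 and 2 without DMSO 1 h, 4 and 4 without SMC, 4 and 4 with the GC trend removed).

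Genes for lipid mediators fell in large part and none of the 22 tested rose: 11 were lower, with a median log2 fold change of -0.38. The count was 8 without DMSO 0 h or without DMSO 1 h, and 1 member rose without SGC and 1 without fresh 1 h medium. These genes make or receive lysophosphatidic acid, sphingosine 1-phosphate and prostaglandins, lipids through which stromal cells signal to immune and vessel cells. PLA2G4A, the phospholipase that frees arachidonic acid, was at 11.4, 12.6 and 10.1 CPM against 22.5 and 22 CPM (log2 fold change -0.97, SE 0.11, adjusted p = 5.13e-06), PTGS1, a cyclooxygenase, fell 1.71-fold, and PTGER2, a prostaglandin E2 receptor, was at 4.7, 4.38 and 3.31 CPM against 10.1 and 9.66 CPM (log2 fold change -1.26, SE 0.14, adjusted p = 4.63e-06). S1PR3, a sphingosine 1-phosphate receptor, was at 50.1, 47.9 and 50.5 CPM against 121 and 121 CPM (log2 fold change -1.29, SE 0.12, adjusted p = 2.55e-06), LPAR1, a lysophosphatidic acid receptor, fell 1.64-fold, and PPAP2B, which breaks both lipids down outside the cell, 2.47-fold. ENPP2, which makes lysophosphatidic acid, was at 2.89, 3.26 and 2.26 CPM against 11.7 and 11.9 CPM. Genes of synthesis, of breakdown and of receptors were thus among those that fell. The inducible cyclooxygenase PTGS2 (log2 fold change 0.40), PTGIS (-0.20) and PTGER4 (0.081) did not pass.

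Genes of the NRF2 response, which protects against oxidants and electrophiles, were lower in osmolyte-frozen cells. Of 33 members 2 rose and 15 fell, and 14 to 16 fell over the fits that left out 1 library (0 and 14 without DMSO 0 h, 5 and 16 with all 3 trends removed). NQO1 was at 77.5, 97.3 and 98.6 CPM against 193 and 200.4 CPM and at 251, 262 and 275 CPM in fresh libraries, so the order ran from fresh through DMSO-frozen to osmolyte-frozen. TKT, an enzyme of the pentose phosphate pathway, fell with it by 1.45-fold, as did HMOX1, heme oxygenase, by 1.5-fold, TXNRD1 by 1.61-fold, MGST1 by 1.59-fold and CAT, catalase, by 1.48-fold. AKR1C1, an aldo-keto reductase whose reads may be shared with its close relatives, was at 0.489, 0.536 and 0.522 CPM against 1.36 and 1.22 CPM (log2 fold change -1.31, SE 0.31, adjusted p = 0.0037). The chains of the first enzyme of glutathione synthesis parted: GCLM fell 1.29-fold and GCLC rose 1.27-fold (adjusted p = 0.0205, and 0.0947 without DMSO 0 h, 0.105 without DMSO 1 h and 0.0551 without SMC). SLC7A11, the cystine carrier, which is also a target of ATF4, was at 17.9, 23.9 and 28.9 CPM against 16 and 16.9 CPM (adjusted p = 0.0402, but 0.063 with library totals alone, 0.178 without DMSO 0 h, 0.207 without DMSO 1 h, 0.104 without SGC, 0.104 without SGI, 0.0664 without fresh 0 h and 0.0593 without fresh 1 h medium). NFE2L2, which encodes NRF2, and its inhibitor KEAP1 did not pass (log2 fold changes -0.16 and -0.067). The element core TGACNNNGC was in 14.8% of all promoters, in 2 of 12 promoters of members that fell and in 3 of 13 of members that did not pass. TFRC, the transferrin receptor, fell from 190.3 and 206 to 123, 113 and 109 CPM (log2 fold change -0.79, SE 0.082, adjusted p = 2.13e-06), and FTH1 and FTL, the ferritin chains, did not pass (log2 fold changes -0.17 and -0.022).

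Central carbon metabolism was lower at several steps. Of 22 genes of the citric acid cycle 0 rose and 11 fell (0 and 7 without DMSO 0 h), with SUCLG2 at 1.81-fold, ACO1 at 1.64-fold, IDH1 at 1.4-fold and OGDH at 1.38-fold lower. CS, citrate synthase, did not pass (log2 fold change -0.19). Of 24 glycolytic genes 2 rose and 10 fell (0 and 6 without DMSO 0 h, 2 and 6 without DMSO 1 h, 1 and 16 with the GC trend removed). PKM2, pyruvate kinase, was at 939.6, 994 and 981 CPM against 1358 and 1329 CPM (log2 fold change -0.47, SE 0.076, adjusted p = 0.000189), LDHA, lactate dehydrogenase, fell 1.38-fold and PGK1 1.38-fold, while GAPDH and ALDOA did not pass (log2 fold changes -0.077 and -0.086). HIF1A, the oxygen-regulated factor that drives many of these, was at 352, 357 and 371 CPM against 734 and 765 CPM and at 786, 833 and 717 CPM in fresh libraries. CA12, a carbonic anhydrase, and EGLN1, the hydroxylase that marks HIF proteins for decay, fell 2.59-fold and 1.33-fold, while ADM, another target, rose 1.39-fold. In the respiratory chain 10 of 61 genes were higher and 5 lower. The counts depended on the setting (2 and 2 without DMSO 0 h, 6 and 4 without DMSO 1 h, 5 and 5 without SGC or fresh 0 h, 5 and 3 without SGI, 0 and 14 with the length trend removed, where the median turned from 0.11 to -0.098, 17 and 4 with all 3 trends removed, 15 and 3 with library totals). In lipid synthesis SREBF1, a factor that drives lipid genes, rose 1.43-fold, ELOVL6 and ACSL4, which lengthen and activate fatty acids, fell 1.56-fold and 1.58-fold, and FASN did not pass (log2 fold change -0.16).

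Several carriers and channels for osmolytes were lower in the cells frozen in osmolyte solutions. Cells that meet hypertonic surroundings usually gather osmolytes by such carriers under the factor NFAT5, and release them through LRRC8 channels when they swell. Of 22 members 1 rose and 9 fell (0 and 5 without DMSO 0 h, 1 and 5 without SGC or SGI, 1 and 5 with library totals). SLC6A6, the taurine carrier, was at 227, 200.2 and 197 CPM against 403 and 378 CPM and at 552, 624 and 612 CPM in fresh libraries (log2 fold change -0.91, SE 0.086, adjusted p = 6.40e-07). AKR1B1, aldose reductase, which makes sorbitol, fell 1.45-fold, SLC44A1, a choline carrier, 1.48-fold, and the channel subunits LRRC8C and LRRC8D 1.96-fold and 1.55-fold. SLC5A3, the inositol carrier, was at 68.1, 49.3 and 59 CPM against 94.4 and 94.7 CPM (adjusted p = 0.0458, but 0.0563 with library totals alone, 0.189 without DMSO 0 h, 0.159 without DMSO 1 h, 0.0864 without SGC and 0.109 without SGI). NFAT5, LRRC8A and SLC6A8, the creatine carrier, did not pass (log2 fold changes 0.15, -0.040 and 0.070). Among 32 ion channels 9 rose and 9 fell (4 and 6 without DMSO 0 h, where the median turned from 0.052 to -0.083, 5 and 10 with the GC trend removed, where the median turned from 0.052 to -0.14). The sodium channels SCN3A and SCN2A were at 18.6, 15.2 and 19.8 CPM against 67.6 and 66.7 CPM and at 0.636, 0.759 and 0.87 CPM against 2.8 and 2.29 CPM, and KCNMA1, a potassium channel, fell 1.92-fold.

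Genes of cell division and DNA repair leaned lower by small amounts. Of 40 mitotic genes 0 rose and 18 fell, with a median log2 fold change of -0.27, but 2 fell in the 1 h libraries alone (0 and 4 without DMSO 0 h, 0 and 30 with the length trend removed). Of 40 replication genes 0 rose and 14 fell, against 3 in the 1 h libraries alone (0 and 6 without DMSO 0 h, 0 and 9 without DMSO 1 h, 1 and 23 with the length trend removed, 1 and 8 with library totals). TOP2A, which untangles chromosomes, was at 133, 128 and 150.3 CPM against 181 and 214 CPM (log2 fold change -0.52, SE 0.11, adjusted p = 0.00144, and adjusted p = 0.0521 without DMSO 0 h), with DMSO 0 h the higher of the DMSO-frozen pair and fresh libraries at 182, 216 and 171 CPM. BUB1, a checkpoint kinase, and ECT2, which places the cleavage furrow, fell 1.41-fold and 1.37-fold and were called whichever library was left out. CDK1, CCNB1 and PLK1 did not pass (log2 fold changes -0.17, -0.22 and -0.17). RRM1, of ribonucleotide reductase, was at 51, 52.6 and 52.2 CPM against 76.7 and 87.8 CPM (log2 fold change -0.66, SE 0.083, adjusted p = 1.60e-05), MCM6, of the helicase, fell 1.39-fold, and PCNA did not pass (log2 fold change 0.044).

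Among genes of the G1 phase, 4 of 23 rose and 4 fell (3 and 1 without DMSO 0 h, 3 and 2 without DMSO 1 h). CDKN2B, the inhibitor p15, was at 97.5, 84.9 and 68.9 CPM against 34.1 and 37.4 CPM and its neighbour CDKN2A at 43.6, 40.1 and 37.7 CPM against 24 and 20.9 CPM, with log2 fold changes of 1.23 (SE 0.12, adjusted p = 4.02e-06) and 0.85 (SE 0.10, adjusted p = 1.39e-05). CCND2, a D-type cyclin, was at 5.92, 6.16 and 3.44 CPM against 1.09 and 1.1 CPM, while CCND1 and CDKN1A did not pass (log2 fold changes -0.14 and 0.10). Of 26 genes of double-strand break repair 0 rose and 13 fell (0 and 8 without DMSO 0 h). PRKDC, the kinase of end joining, was at 257, 233 and 247 CPM against 414 and 425 CPM (log2 fold change -0.77, SE 0.081, adjusted p = 2.13e-06), RAD50 and NBN, of the complex that holds broken ends, fell 1.38-fold and 1.37-fold, and BRCA1 1.52-fold. ATM did not pass (log2 fold change -0.20). Of 25 p53 targets 7 rose and 3 fell (3 and 2 without DMSO 0 h, 3 and 4 with the length trend removed, 4 and 3 with the GC trend removed). BBC3, which encodes the death-promoting PUMA, rose 1.94-fold, CCNG1 fell 1.36-fold, and MDM2 did not pass (log2 fold change -0.066).

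Many ribosomal protein genes rose by small amounts, while translation factors leaned lower. Of 78 cytosolic ribosomal protein genes 45 rose and 0 fell, with a median log2 fold change of 0.27. The count moved with the settings (14 and 0 without DMSO 0 h, 23 and 0 without DMSO 1 h, 8 and 1 with the length trend removed). Ribosomal protein genes are short, with a median listed length of 764 bases in this list. With the length trend removed the median was 0.030, and with the GC trend removed 0.21. With all 3 trends removed it was 0.27, and 63 rose and 1 fell. RPLP2, of the stalk, rose from 258 and 229 to 357, 355 and 335 CPM (log2 fold change 0.52, SE 0.090, adjusted p = 0.000331) and RPS19, of the small subunit, 1.32-fold. Reads of such genes may be shared with processed copies. Host genes of small nucleolar RNAs, which end translation early and decay by the nonsense-mediated pathway, rose in 6 of 16 cases (3 and 0 without DMSO 0 h or DMSO 1 h, 2 and 0 with the length trend removed), among them SNHG6 at 1.5-fold and GAS5 at 1.32-fold. Factors of that pathway went 1 higher and 4 lower of 16 (1 and 2 without DMSO 0 h, 0 and 1 without DMSO 1 h), and UPF1 did not pass (log2 fold change -0.16).

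Of 44 translation factors 3 rose and 14 fell (0 and 8 without DMSO 0 h, 1 and 12 without DMSO 1 h, 1 and 13 without SGC, 1 and 23 with the length trend removed, 8 and 8 with all 3 trends removed, 5 and 13 with library totals), with EIF4B at 1.41-fold, EIF3A at 1.36-fold and the release factor ETF1 at 1.37-fold lower. None of 40 genes of ribosome assembly rose and 11 fell (0 and 4 without DMSO 0 h, 0 and 19 with the length trend removed, 0 and 18 with the GC trend removed, 2 and 10 with all 3 trends removed, 1 and 7 with library totals), led by UTP20 at 1.58-fold and DDX21 at 1.55-fold. NCL and NPM1 did not pass (log2 fold changes -0.21 and -0.17). Mitochondrial ribosomal protein genes had few calls, with 5 of 75 higher and 7 lower, shares below those of all genes, though not under every setting (1 and 4 without DMSO 0 h, 1 and 6 without SGC, 3 and 5 without SGI, 3 and 8 without fresh 0 h, 9 and 8 without fresh 1 h medium, 1 and 30 with the length trend removed, 12 and 4 with library totals).

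Folding and transport of proteins leaned lower, beside 13.6% of all genes that rose and 16.5% that fell. Proteasome genes did not, since 12.5% of them fell, below the share of all genes. Of 23 heat shock genes 2 rose and 8 fell (1 and 3 without DMSO 0 h, 2 and 4 without DMSO 1 h or SGI, 2 and 5 without SMC, 2 and 4 with library totals). HSPA8, the constitutive cytosolic chaperone, was at 1104, 1135 and 985 CPM against 1377 and 1489.7 CPM (log2 fold change -0.42, SE 0.082, adjusted p = 0.00107) and HSPA4, which recharges it, fell 1.46-fold. HSPB1, a small heat shock protein, rose from 159 and 121 to 217, 229.6 and 217 CPM (log2 fold change 0.66, SE 0.12, adjusted p = 0.000736), and the inducible HSPA1A and DNAJB1 did not pass (log2 fold changes 0.31 and -0.14). In the endoplasmic reticulum HERPUD1 rose 1.49-fold and SEL1L, its partner in the degradation of misfolded proteins, fell 1.7-fold, as did CANX, calnexin, by 1.46-fold. HSPA5 was at 962, 1118 and 989 CPM against 1106 and 1168 CPM and did not pass, and neither did XBP1 (log2 fold change 0.0073). Of these 23 genes 2 rose and 6 fell (4 and 6 with library totals). Of 36 genes of the coats that carry cargo between reticulum and Golgi 1 rose and 14 fell (0 and 5 without DMSO 0 h, 6 and 6 with all 3 trends removed, 4 and 13 with library totals). SEC23A fell 1.44-fold and TMED10 1.41-fold. Of 32 proteasome genes 0 rose and 4 fell (0 and 2 without DMSO 0 h or SMC, 0 and 14 with the length trend removed, where the median turned from 0.0076 to -0.17, 5 and 3 with all 3 trends removed, 0 and 2 with library totals). Autophagy genes went 6 higher and 7 lower of 29 (1 and 2 without DMSO 0 h, 5 and 3 without DMSO 1 h or SGC, 8 and 3 without SGI, 3 and 7 with the length trend removed, 2 and 7 with the GC trend removed, 9 and 3 with all 3 trends removed, where the median turned from -0.074 to 0.061, 9 and 3 with library totals), and lysosome genes 5 and 8 of 31 (2 and 6 without DMSO 0 h, 3 and 8 without SMC or SGC, 2 and 12 with the length trend removed, 2 and 11 with the GC trend removed, 8 and 7 with library totals). SQSTM1, the receptor for cargo of autophagy, was at 227, 238 and 213 CPM against 243 and 224 CPM and did not pass.

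Cytokine and interferon genes showed no single direction. IL1R1, the interleukin 1 receptor, was at 60.9, 57.3 and 57.9 CPM against 179 and 175 CPM and OSMR, of the oncostatin M receptor, fell 1.59-fold, while TNFRSF12A, the receptor of TWEAK, rose 1.52-fold. Of 23 receptors 6 rose and 8 fell (3 and 5 without DMSO 0 h or DMSO 1 h). Of 31 genes of NF-kappa-B, cytokines and chemokines 4 rose and 3 fell (3 and 1 without DMSO 0 h, DMSO 1 h or SGC, 7 and 3 in the 5 frozen libraries). CXCL12, the stromal chemokine that holds blood stem cells in marrow, was at 694, 699 and 699.9 CPM against 1035 and 1045 CPM (log2 fold change -0.58, SE 0.074, adjusted p = 2.04e-05). The 3 osmolyte-frozen libraries lay close together. IL32 was at 21.8, 23.1 and 19.7 CPM against 8.09 and 7.65 CPM (log2 fold change 1.45, SE 0.15, adjusted p = 1.81e-06), RELB, a subunit of NF-kappa-B, rose 1.53-fold, and IL6, IL8 and CCL2 did not pass (log2 fold changes 0.51, 0.11 and 0.52). Among 33 interferon-stimulated genes 8 rose and 4 fell (3 and 0 without DMSO 0 h, 9 and 2 without SGI, 3 and 6 with the length trend removed, where the median turned from 0.16 to -0.032, 4 and 4 with the GC trend removed). HLA-B, a class I antigen gene that may share reads with its relatives, rose 1.8-fold, and the antiviral genes MX1 and IFIT1 did not pass (log2 fold changes -0.0057 and -0.38). THBD, thrombomodulin, which turns off clotting, was at 15.7, 16.2 and 12.1 CPM against 5.86 and 6.39 CPM, CLU, clusterin, rose 1.69-fold, and TFPI, an inhibitor of the clotting pathway, fell 1.45-fold. In all 4 of 25 genes of complement and coagulation rose and 7 fell (3 and 4 without DMSO 0 h or DMSO 1 h, 4 and 8 with the length trend removed, where the median turned from 0.016 to -0.097, 7 and 7 with all 3 trends removed).

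Immediate early genes had a high median, and the number called moved with the libraries in the fit. The median log2 fold change of 28 such factors was 0.77, yet 4 rose and 0 fell in the fit on all 8 libraries. In a fit on the 5 frozen libraries alone 14 rose. JUNB was at 97.4, 148 and 103 CPM against 52.7 and 42.9 CPM and FOS at 123, 432 and 249.98 CPM against 77 and 154 CPM, and neither passed (adjusted p = 0.17 and 0.452). JUNB did not overlap between the groups and FOS did. In fresh libraries FOS was at 528, 72.2 and 733 CPM, higher in 2 of 3 than in any frozen one. The other counts that moved were 0 and 0 without DMSO 0 h, 2 and 0 without DMSO 1 h, 9 and 0 without fresh 1 h DMSO, 7 and 0 without fresh 1 h medium, 2 and 1 with the GC trend removed.

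Chromatin modifiers leaned lower, except with all 3 trends removed, where the median was 0.0093 against -0.14. Of 50 chromatin modifiers 1 rose and 15 fell (0 and 6 without DMSO 0 h, 0 and 8 without DMSO 1 h, 2 and 8 without SGC, 4 and 13 with the length trend removed, 5 and 11 with all 3 trends removed, where the median turned from -0.14 to 0.0093), with NSD1, a methyltransferase, at 1.64-fold and DNMT1, which copies DNA methylation, at 1.57-fold lower. The median listed length in this list was 7126 bases. Of 42 splicing factors 7 rose and 9 fell (3 and 4 without DMSO 0 h, 1 and 6 without DMSO 1 h, 12 and 9 without fresh 1 h medium, 3 and 11 with the length trend removed, 11 and 9 with the GC trend removed, 18 and 6 with all 3 trends removed). In a short list of long noncoding RNAs, 4 of 7 tested members were higher and 1 lower. MALAT1 was at 8726, 7789 and 8200.3 CPM against 3786 and 4241 CPM, H19 at 30.3, 24.4 and 19.7 CPM against 12.3 and 10.2 CPM and MIAT rose 2.41-fold. Their log2 fold changes were 1.04 (SE 0.095, adjusted p = 5.01e-07), 1.14 (SE 0.16, adjusted p = 0.000182) and 1.27 (SE 0.11, adjusted p = 2.67e-07).

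Identity markers of the stromal cell were lower on balance. Of 23 tested 3 rose and 9 fell (1 and 7 without DMSO 1 h, 1 and 12 with the length trend removed), and the list summed to 10998 to 11829.8 CPM in osmolyte-frozen, 13866 to 14052 CPM in DMSO-frozen and 14168 to 14474 CPM in fresh libraries. NT5E fell from 257 and 257 to 156, 169 and 174 CPM (log2 fold change -0.63, SE 0.084, adjusted p = 3.08e-05), ALCAM fell 1.72-fold and ANPEP 1.98-fold. TWIST1, a mesenchymal factor, rose 1.33-fold. THY1 rose with a log2 fold change of 0.245, while NT5E and ENG fell. The THY1 call was lost in several alternatives (adjusted p = 0.0757 without SMC, 0.124 without SGC and 0.403 with the GC trend removed). ENG was at 212, 194 and 199 CPM against 284 and 248 CPM (adjusted p = 0.00156, and 0.0512 without DMSO 1 h). In bulk RNA, fewer cells with a transcript and less of it per cell cannot be told apart. Adipocyte genes had 0 of 12 higher and 5 lower, with PPARG, the master factor, at 3.67, 3.8 and 4.09 CPM against 6.6 and 7.77 CPM (log2 fold change -0.90, SE 0.14, adjusted p = 0.000143) and EBF2 falling 2.39-fold. Bone and cartilage genes had few calls, with 1 of 13 higher and 1 lower (0 and 3 without SMC, 1 and 3 without fresh 1 h medium, 2 and 3 with all 3 trends removed or in the 5 frozen libraries, 3 and 1 with library totals), and RUNX2 and SOX9 did not pass (log2 fold changes 0.35 and -0.15). HOXB2 and HOXB3, which mark position along the body, rose 1.61-fold and 1.59-fold.

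Markers of other cell types were measured in the same libraries. Of 16 pluripotent markers 10 were tested, 3 rose and 0 fell (5 and 0 without SMC), and LIN28B, PRDM14, TERT and UTF1 were at 0 counts in all 5 frozen libraries. The pluripotent list summed to 54.6 to 59.5 CPM in osmolyte-frozen and 43.7 to 44.8 CPM in DMSO-frozen libraries. POU5F1, which may share reads with processed copies, was at 4.36, 4.55 and 5.53 CPM against 2.54 and 2.13 CPM, and NANOG did not pass (adjusted p = 0.0865). Endothelial markers (1 higher and 3 lower of 11, 1 and 1 without DMSO 0 h or SGC, 1 and 3 with all 3 trends removed, where the median turned from 0.025 to -0.18) summed to 66.5 to 79.5 CPM against 73.2 to 76.5 CPM, and neural progenitor markers (0 and 0 of 6) to 108 to 116 CPM against 114 to 129.8 CPM, so both overlapped between the groups. Epithelial markers (2 and 0 of 9, 0 and 0 without DMSO 0 h) summed to 1279 to 1400.4 CPM against 1227 to 1251 CPM, with ESRP1 at 0 counts in all 5. The part of other cells in the results above was not tested.

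Several genes outside these lists were among the largest differences. LMCD1, a partner of cardiac transcription factors, was at 68.4, 69.8 and 61.2 CPM against 23.6 and 20.2 CPM (log2 fold change 1.60, SE 0.10, adjusted p = 7.87e-09), EDN1, the vessel-tightening peptide endothelin 1, at 15, 21.7 and 18.9 CPM against 5.64 and 7.14 CPM and LIMS2, an adhesion adaptor, rose 2.86-fold. DIO2, which activates thyroid hormone, was at 41.3, 38.9 and 42.2 CPM against 103 and 122 CPM (log2 fold change -1.46, SE 0.086, adjusted p = 3.27e-09) and FGG, a chain of fibrinogen, at 215, 255 and 216 CPM against 555 and 569.7 CPM and at 712, 829.5 and 861 CPM in fresh libraries (log2 fold change -1.30, SE 0.094, adjusted p = 4.38e-08). ABLIM3, an actin-binding protein, fell 2.81-fold, AOX1, aldehyde oxidase, 2.91-fold, and CLCN4, a chloride transporter, 2.49-fold. Among abundant genes AHNAK, a giant scaffold, fell from 2033 and 2002 to 1109.7, 913 and 1010.0 CPM (log2 fold change -1.0, SE 0.098, adjusted p = 1.36e-06), LAMC1, a laminin chain, fell 1.52-fold, and PRSS23, a protease, rose 1.34-fold. LAMB1, a partner chain in laminins, went from 1871 and 1779.7 to 2398, 2232 and 2079 CPM, a rise (log2 fold change 0.29, SE 0.090, adjusted p = 0.0199, and adjusted p = 0.17 without DMSO 0 h, 0.0645 without DMSO 1 h and 0.0629 without SMC).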

How the data were processed

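The authors deposited 1 table with a whole-number count and an RPKM value (reads scaled to gene length and library total) per gene and library. The submitters' processing notes name CASAVA, TopHat, HTSeq and hg19, without roles. All counts were even, and only counts were tested. RPKM as deposited gave the library totals. Of 23398 entries, 49 identifiers were repeated and 23354 genes were kept. Listed length is the value per gene in the authors' deposited table. Strand use in counting is not given in the sources used here, so overlapping genes may share reads. Such pairs were DDIT3 with MARS, ACTA2 with FAS, ELN with GTF2IP1, SLC6A9 with CCDC24, ASPN with CENPP, IGFBP7 with POLR2B, SLC6A6 with GRIP2, SLC5A3 with MRPS6, LIMS2 with GPR17, ITGA4 with CERKL, S1PR3 with C9orf47, and CDKN2B, HIF1A, IGF2, BDNF, MYLK and HAS2 with antisense genes.

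Genes were tested with edgeR 4.0.16 (R 4.3.3, limma 3.58.1): filterByExpr by state, TMM, glmQLFit with robust estimation on all 8 libraries in 3 groups with 5 residual degrees of freedom, and glmQLFTest of osmolyte-frozen minus DMSO-frozen, adjusted over 15564 genes. SE is the absolute log2 fold change over the square root of F. Levels are CPM with TMM factors. "Rose" and "fell" mean an adjusted p under 0.05. The biological coefficient of variation was 0.0971. Library pairs differed by more than sampling noise, with chi-square per degree of freedom of 6.47 to 73.1 on halved counts. The test was checked on simulated data.

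The 74 gene lists and the comparison were chosen with earlier results of these data known. Named genes were, among called and not overlapping genes of at least 5 CPM, the 30 largest changes in fold and the 15 largest in CPM each way, and for each list up to 6 called members each way and up to 3 that did not pass. Fewer are printed, chiefly those called whichever library was left out. GC content came from GENCODE transcripts by symbol (94.3% of genes). Promoters are RefSeq's. Some named genes are not reported here. Alternatives are DESeq2 1.42.0, other scalings and filters, frozen libraries only, 1 h libraries only, counts halved, a 1.2-fold threshold, each library left out and, chosen after seeing the data, offsets for length, GC and level.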

Additional observations from a re-analysis of the deposited data

How the results depend on the processing

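Against 2121 genes higher, 2563 lower and 4684 in all, a test against 1.2-fold gave 717, 870 and 1587, and the 1 h libraries alone (SGC, SGI, DMSO 1 h and the fresh 1 h libraries) gave 934, 1505 and 2439, where the single DMSO-frozen library borrows its spread from the rest. Leaving out 1 library gave 823 to 2373 higher, 1313 to 2881 lower and 2136 to 5254 in all, lowest without DMSO 0 h and highest without fresh 1 h medium. The other alternatives kept each count within 1.5 times. No called gene changed direction under alternatives that were set before the offsets were added. With length offsets 10 of the 4684 had the opposite sign, with GC offsets 6 and with all 3 offsets 5. No paired analysis was possible because the labels give no replicate numbers shared between the groups. By the rule given with the trends, 52 of 74 lists moved without DMSO 0 h, 52 in the 1 h libraries alone and 23 with the length trend removed, and the cause was not tested. Counts in the 1 h libraries alone are printed beside 2 lists only. Genes of low level were called less often, with 4.43% higher and 1.48% lower in the lowest 10% by level, so a gene there that did not pass may differ by an amount not detectable at this depth.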

Other observations

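The 3 osmolyte-frozen libraries each had their own solution, so differences among them have no replicate check and no test, and the hold of 2 h goes with SMC alone. Lists of the stress response differed in order among the solutions. The mean log2 level of the integrated stress regulators was lower in SMC by 0.24 than the mean of SGC and SGI, and SMC was also lower by 0.13 for amino acid transporters and by 0.12 for amino acid synthesis. It was higher by 0.037 for heat shock proteins, 0.034 for chaperones of the endoplasmic reticulum and 0.10 for p53 targets. Lists of matrix genes were higher in SMC, by 0.20 for collagens, 0.20 for glycoproteins and proteoglycans and 0.33 for bone and cartilage genes. LUM was at 46.5, 34.4 and 23.7 CPM in SMC, SGC and SGI, and COL1A1 at 45295, 35073 and 33393 CPM. The DMSO-frozen 1 h library stood higher than the 0 h one by 0.14 for collagens and 0.30 for bone and cartilage genes, so these lists also differed between the DMSO-frozen libraries.

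Over all genes tested, 13.6% were higher and 16.5% lower. Of 679 genes with LOC names, 135 or 19.9% were higher and 10 or 1.47% lower. Of 98 antisense genes, 16 or 16.3% were higher and 3 or 3.06% lower. On chromosome 19, 19.9% of 1130 genes were higher and 2.92% lower, and on chromosome 18, 6.73% of 223 were higher and 23.3% lower. The part of gene length, GC content and level in these shares was not tested.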
